A study of Homo sapiens with 6 samples.

Results

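Adherens junction genes were examined in control A431 cells (A431CT) and in A431 cells with a CRISPR/Cas9 knockout of Desmoglein-2 (Dsg2KO). The genes were 10 rows of the deposited count table, chosen by name, out of 21462 rows in all. They are the classical cadherins CDH1 and CDH3, the catenins CTNNA1, CTNNB1 and CTNND1, the actin linkers VCL and AFDN, and the nectins NECTIN1, NECTIN2 and NECTIN4. A431 is a keratinocyte line from a human epidermoid carcinoma, and both lines were grown without any further treatment in DMEM with serum. RNA was sequenced from 3 replicates per condition, 6 libraries in all. Both lines are gifts that the study received, and whether either is a single clone is not stated, so a difference between the lines and an effect of Dsg2 loss cannot be told apart.

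Adherens junctions are the actin-linked cell-cell contacts that sit beside desmosomes in epithelia. The classical cadherins bind their like on the neighbouring cell through calcium-dependent extracellular domains, and their tails bind β-catenin and p120 catenin. β-catenin in turn binds α-catenin, which connects to actin and recruits vinculin when it is under tension. Nectins are immunoglobulin-type adhesion molecules that form a parallel set of contacts and connect to actin through afadin, the product of AFDN. In the epidermis E-cadherin is found in all living layers and P-cadherin is mainly basal.

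In Dsg2KO cells, CDH1, CDH3, CTNNA1 and NECTIN2 rose, by at most 1.28-fold, and AFDN fell to 0.891-fold. The fall of AFDN did not pass the test in 3 of the 6 fits with 1 library left out, and its sign turned once the shift of its genomic neighbours was taken off. Changes are described as rises or falls where the quasi-likelihood F test of edgeR gave p under 0.05 after Benjamini-Hochberg adjustment over all tested genes. By that measure 5 of the 10 genes changed, 4 of them upward, beside 29.6% of all tested genes (14.3% upward and 15.3% downward). None of the 10 also reached the study's fold change minimum of 0.5 on the log2 scale, which together with the adjusted p-value was passed by 6.03% of tested genes (2.99% upward and 3.03% downward). The 95% intervals of all 10 log2 fold changes lay within 0.5 of 0. The median size of the log2 fold change was 0.13 for the 10 genes and 0.14 for all 12857 tested genes, and the signed medians were 0.079 and -0.0048. The groups did not overlap for 7 of the 10 genes, beside 42.6% of all tested genes. Of these 7, 5 were higher and 2 lower in Dsg2KO cells, beside 21.2% and 21.4% of all tested genes. All 10 genes passed the filter on low counts, and their counts lay between 101 and 7476 per library.

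**Figure D1:**
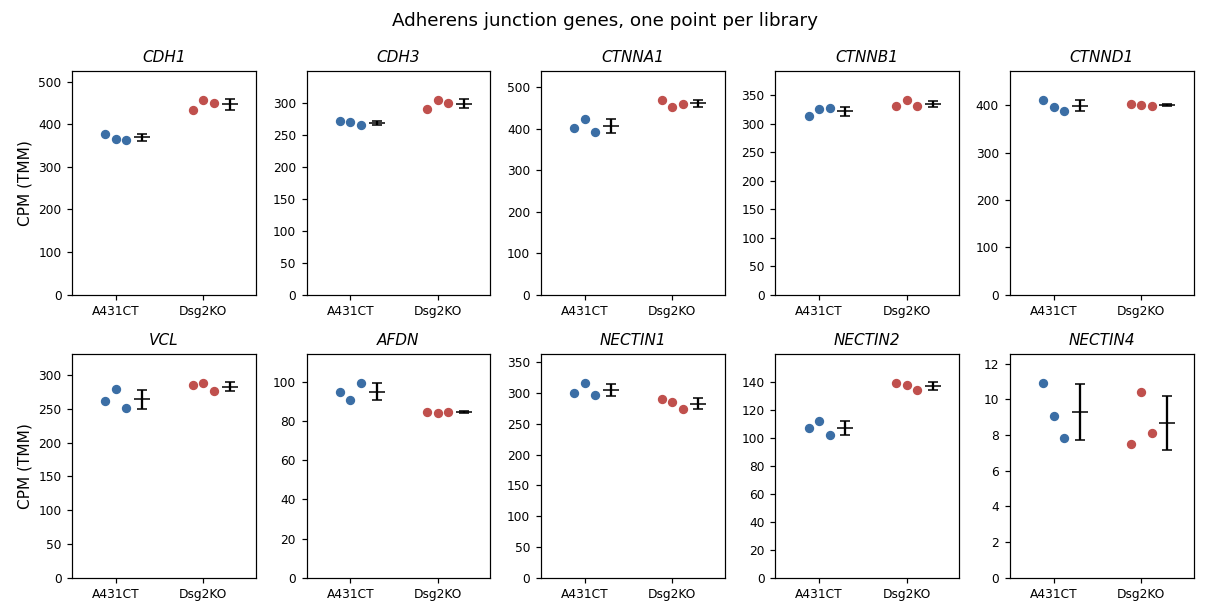
Levels of the 10 adherens junction genes in CPM (counts scaled to the TMM-normalized size of each library, y axis from 0) in 3 A431CT and 3 Dsg2KO libraries, one point per library, with the mean and SD in black. The Dsg2KO points of CDH1, CDH3, CTNNA1, CTNNB1 and NECTIN2 all sit above the A431CT points, those of AFDN and NECTIN1 below, and the other 3 genes overlap.

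The targeted gene followed its labels. DSG2 was at 323 ± 6.08 CPM (SD, n = 3) in A431CT cells and 51.9 ± 2.88 CPM (SD, n = 3) in Dsg2KO cells, a log2 fold change of -2.64. Library totals were between 12845719 and 16255692 counts. The summed level of 10 epithelial and keratinocyte markers was between 3450 and 3470 CPM in A431CT libraries and between 3510 and 3620 CPM in Dsg2KO libraries. Of these markers 9 were tested, of which 3 were higher and 3 lower by adjusted p-value, with KRT8 and KRT18 at 0.31 and 0.35 and SFN and KRT6A at -0.46 and -1.03 on the log2 scale. KRT14, the usual basal keratin partner of KRT5, had at most 2 counts in any library. Whether reads of KRT14 were counted under other genes was not tested, so its level is uncertain. Of 6 fibroblast markers the summed level did not exceed 0.516 CPM. Endothelial and leukocyte markers summed to between 10.4 and 13.2 CPM in A431CT and between 16.3 and 17.0 CPM in Dsg2KO libraries.

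CDH1 encodes E-cadherin, the main classical cadherin of epithelia, and lies on chromosome 16 of GRCh38 from 68737292 to 68835537. Its level was 378, 366 and 364 CPM in the A431CT libraries and 433, 457 and 451 CPM in the Dsg2KO libraries. The lowest Dsg2KO library was above the highest A431CT library, and the gap between the groups was wider than the spread within either. The means were 369 ± 7.53 and 447 ± 12.5 CPM (SD, n = 3 each), a rise of 1.21-fold. On the log2 scale the rise was 0.28 ± 0.036 (SE, 95% interval 0.20 to 0.35, edgeR adjusted p = 4.22e-05), and it stayed between 0.26 and 0.30 with each library left out in turn. In RNA from a bulk culture, more cells that express a gene and more RNA per cell cannot be told apart.

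CDH3, which encodes P-cadherin, ends 9.8 kb before the start of CDH1 on the same strand, at positions 68636189 to 68727468. Its level was 271, 270 and 265 CPM in A431CT and 290, 304 and 299 CPM in Dsg2KO libraries. The groups were again separate, by a smaller gap. The rise was 1.11-fold (95% interval 1.05 to 1.17), or 0.15 ± 0.036 on the log2 scale (SE, edgeR adjusted p = 0.0061). Within each library the log2 ratio of CDH3 to CDH1 does not depend on the scaling of that library. It was -0.481, -0.439 and -0.460 in A431CT and -0.580, -0.590 and -0.592 in Dsg2KO cells, so that CDH3 was lower relative to CDH1 in each Dsg2KO library than in any A431CT library. The difference of -0.128 gave p = 0.10 in a two-sided exact permutation test, which is the smallest p that 3 against 3 libraries can give. After adjustment over the 5 single values tested in this way it was p = 0.167 (exact permutation test). The summed level of both cadherins was 649, 636 and 629 CPM in A431CT and 723, 761 and 751 CPM in Dsg2KO libraries. These sums were separate too, which follows from the separation of each cadherin. Their exact permutation p of 0.10 and adjusted p of 0.167 are therefore no further result.

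The genes around CDH1 and CDH3 went in both directions. The 95 other tested genes within 5 Mb of CDH1 centred on a median change of -0.016 (log2), and 46 of them were higher in Dsg2KO cells. Within 1 Mb, a window taken after the values had been seen, the 35 neighbours had a median of 0.029. By adjusted p-value 5 of them rose, CDH3 included, and 4 fell. Whether the rises of CDH1 and CDH3 are separate from those of their neighbours was not tested.

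Of the 3 catenins only CTNNA1 passed the test. CTNNA1, which encodes α-catenin, lies on chromosome 5 from 138610967 to 138935034 and had 402, 424 and 392 CPM in A431CT and 469, 453 and 460 CPM in Dsg2KO libraries. All Dsg2KO libraries were above all A431CT libraries. The rise was 1.13-fold, or 0.18 ± 0.038 on the log2 scale (SE, 95% interval 0.10 to 0.26, edgeR adjusted p = 0.0020). Its 79 neighbours within 5 Mb had a median of 0.058. With that median taken off, CTNNA1 was at 0.12 (edgeR adjusted p = 0.0292). CTNNB1 on chromosome 3, which encodes β-catenin, the cadherin tail's partner and also a coactivator in Wnt signaling, was at 313, 326 and 327 CPM in A431CT and 332, 342 and 332 CPM in Dsg2KO libraries. These groups did not overlap either, but the log2 fold change of 0.057 (95% interval -0.020 to 0.13) did not pass the test (adjusted p = 0.269, edgeR). CTNND1 on chromosome 11 encodes p120 catenin, which stabilizes cadherins at the membrane. It was at 411, 397 and 388 CPM in A431CT and 403, 400 and 399 CPM in Dsg2KO libraries. The Dsg2KO values fell inside the A431CT range, and the log2 fold change was 0.007 (95% interval -0.068 to 0.082, adjusted p = 0.907, edgeR). As a fold the interval ran from 0.954 to 1.06.

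Ratios between catenins were also taken within each library. The log2 ratio of CTNNA1 to CTNNB1 was 0.360, 0.380 and 0.261 in A431CT and 0.498, 0.407 and 0.472 in Dsg2KO cells. The groups were separate, by 0.125 between the means, with an exact permutation p of 0.10 (adjusted p = 0.167). For CTNND1 to CTNNB1 the ratios overlapped, with means of 0.307 ± 0.075 and 0.257 ± 0.027 (SD, n = 3 each, exact permutation p = 0.40, adjusted p = 0.50).

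**Figure D2:**
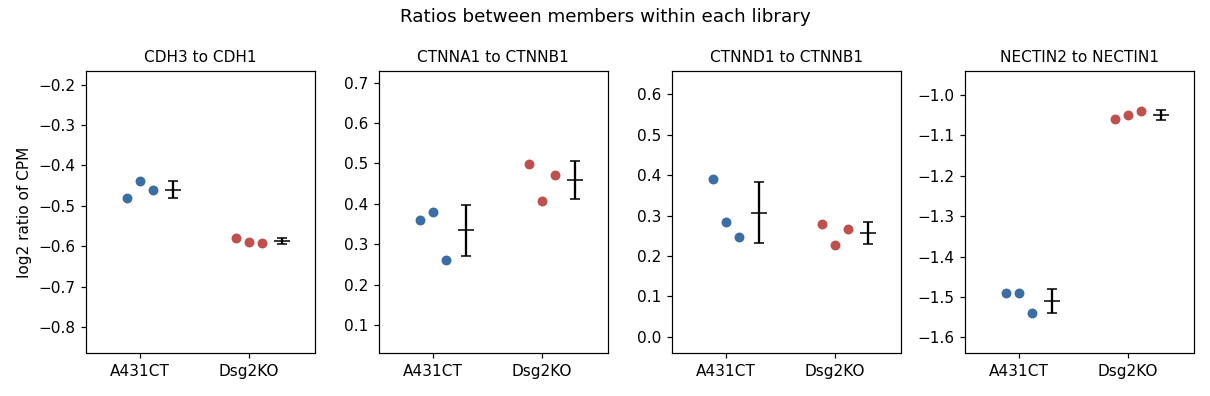
Log2 ratio of CPM between pairs of members within each library (y axis, the same span of values in every panel), one point per library, with the mean and SD in black. CDH3 to CDH1 is lower in all 3 Dsg2KO libraries, CTNNA1 to CTNNB1 and NECTIN2 to NECTIN1 are higher, and CTNND1 to CTNNB1 overlaps.

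The links to actin gave one fall and one value that missed the threshold. VCL on chromosome 10 encodes vinculin, which binds stretched α-catenin at cell-cell contacts and talin at focal adhesions. It was at 262, 279 and 251 CPM in A431CT and 286, 288 and 276 CPM in Dsg2KO libraries. One Dsg2KO library lay below the highest A431CT library, and the log2 fold change of 0.10 (95% interval 0.0099 to 0.19) had an adjusted p of 0.0903 (edgeR). Over the alternative settings this adjusted p ran from 0.0165 to 0.302, and without A431CT replicate 2 VCL passed the test at 0.14.

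AFDN lies on chromosome 6 from 167826893 to 167972023. Its level was 94.8, 90.6 and 99.3 CPM in A431CT and 84.7, 84.2 and 84.8 CPM in Dsg2KO libraries, so every Dsg2KO library was below every A431CT library. The log2 fold change was -0.17 (95% interval -0.27 to -0.065, adjusted p = 0.0156, edgeR), a level 0.891-fold that of A431CT. The neighbours of AFDN were lower as well. Of the 17 other tested genes within 5 Mb, 3 were higher in Dsg2KO cells, and their median log2 fold change was -0.24. Once the neighbourhood median was taken off every gene and the table was fitted again, AFDN was at 0.070 (edgeR adjusted p = 0.333) and no longer lower. When A431CT replicate 3 was left out, AFDN stood at -0.13 (edgeR adjusted p = 0.0665), and leaving out Dsg2KO replicate 1 or 2 gave adjusted p-values of 0.0523 and 0.0509. Over all alternatives its adjusted p ran from 0.0068 to 0.333.

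**Figure D3:**
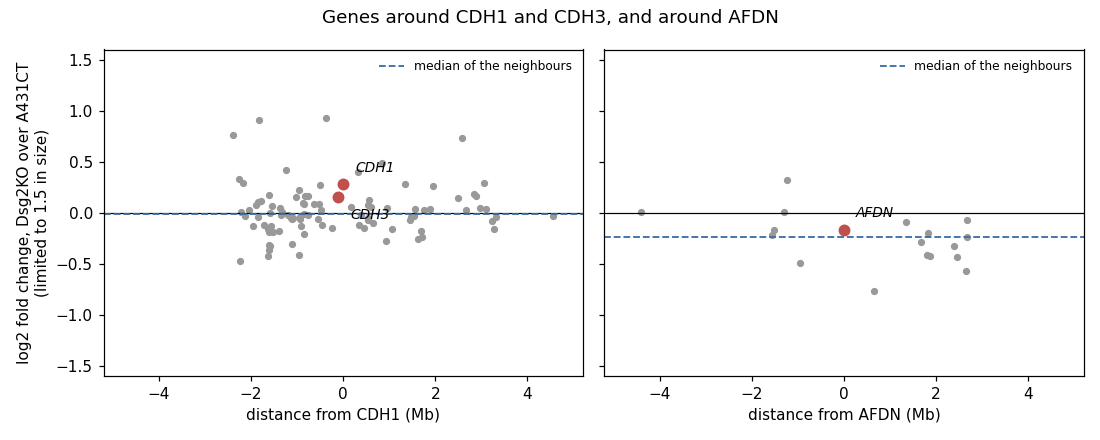
Log2 fold change of the tested genes within 5 Mb of CDH1 (left) or AFDN (right) against their distance in Mb. The y axis is limited to 1.5 in size, the members are in red, and a dashed line gives the median of the neighbours. The neighbours of CDH1 and CDH3 centre on -0.016 and those of AFDN on -0.24, close to AFDN itself at -0.17.

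Of the 3 nectins only NECTIN2 passed the test. NECTIN2, an adhesion molecule that also serves as a ligand for lymphocyte receptors, lies on chromosome 19 from 44846175 to 44889223. It was at 107, 112 and 102 CPM in A431CT and 139, 138 and 134 CPM in Dsg2KO libraries, and the groups were separate by more than the spread of either. This was the largest change among the 10 genes, at 1.28-fold, or 0.36 ± 0.046 on the log2 scale (SE, 95% interval 0.26 to 0.45, edgeR adjusted p = 3.82e-05). The 200 other tested genes within 5 Mb had a median of -0.031, and 87 of them were higher. The nearest genes were higher, however. Of 12 neighbours within 0.25 Mb, 10 had positive values, 5 rose by adjusted p-value and none fell, and their median was 0.26, beside 0.36 for NECTIN2. The 5 were PVR, BCL3, CBLC, BCAM and CLPTM1, with log2 fold changes of 0.318, 0.456, 0.319, 0.551 and 0.239. Whether the rise of NECTIN2 is separate from that of these neighbours was not tested. These narrower windows were taken after the values had been seen. NECTIN1 on chromosome 11, which is also an entry receptor for herpes simplex virus, was at 300, 316 and 297 CPM in A431CT and 291, 286 and 274 CPM in Dsg2KO libraries. Its groups were also separate, with Dsg2KO lower, but the log2 fold change of -0.10 (95% interval -0.19 to -0.020) missed the threshold (adjusted p = 0.0592, edgeR). The median of its 53 neighbours was 0.060. With this median taken off as a fixed value, NECTIN1 was at -0.16 (adjusted p = 0.00829, edgeR), a p-value that leaves out the error of the median. NECTIN4 on chromosome 1, the nectin targeted by an antibody-drug conjugate in urothelial cancer, was weakly expressed, at 10.9, 9.07 and 7.83 CPM in A431CT and 7.52, 10.4 and 8.10 CPM in Dsg2KO libraries. The groups overlapped, and the 95% interval of its log2 fold change, from -0.44 to 0.25, was the widest of the 10 genes.

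The log2 ratio of NECTIN2 to NECTIN1, which was added after the values had been seen, was -1.49, -1.49 and -1.54 in A431CT and -1.06, -1.05 and -1.04 in Dsg2KO cells. The groups were separate, and the value is given as a description with no test. The log2 ratio of NECTIN4 to NECTIN1 overlapped between the conditions, with means of -5.05 and -5.04 (exact permutation p = 0.90, adjusted p = 0.90).

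**Figure D4:**
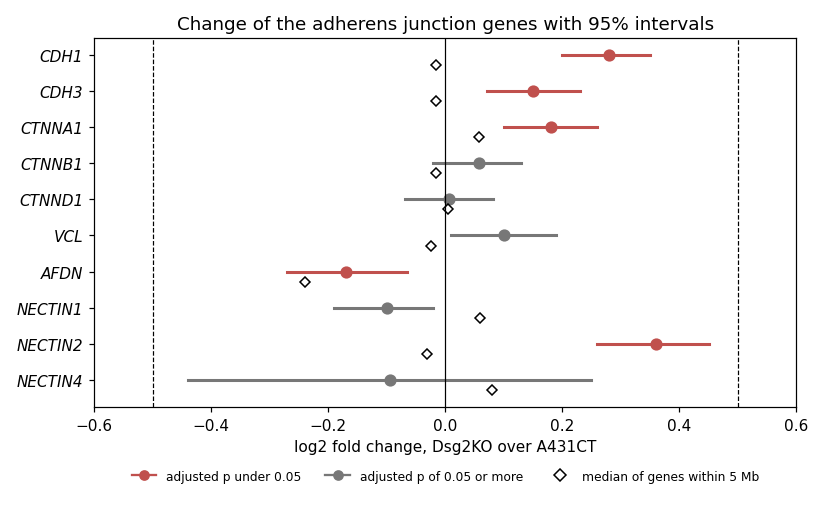
Log2 fold change of each gene, Dsg2KO over A431CT (x axis), with its 95% interval from edgeR's quasi-likelihood fit, in red where the adjusted p-value was under 0.05. Diamonds give the median log2 fold change of the other tested genes within 5 Mb, and dashed lines mark the fold change minimum of 0.5, which no gene reached.

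Levels of different genes were compared per kilobase of the canonical transcript in GENCODE version 44, as CPM per kb. In A431CT cells the order was CTNNA1 at 108 ± 4.39, CTNNB1 at 88.0 ± 2.15, CDH1 at 76.7 ± 1.56, CDH3 at 60.3 ± 0.746 and CTNND1 at 59.8 ± 1.67 CPM per kb (SD, n = 3 each). NECTIN1 at 51.1 ± 1.74, VCL at 48.0 ± 2.61 and NECTIN2 at 39.8 ± 1.92 followed, and AFDN at 12.2 ± 0.557 and NECTIN4 at 2.68 ± 0.451 were last. The libraries of CDH3 and CTNND1 overlapped, as did those of NECTIN1 and VCL, and all other neighbours in this order were separate. In Dsg2KO cells CDH1, at 93.0 ± 2.60 CPM per kb, overlapped CTNNB1 at 91.6 ± 1.51, and NECTIN2, at 50.9 ± 1.09, stood above NECTIN1 at 47.6 ± 1.43. The order depended on the length used. With the union of all annotated exons CDH1 was first in both conditions and CTNNB1 sixth, whereas AFDN and NECTIN4 were last under either length. With that union NECTIN2 and NECTIN1 overlapped in Dsg2KO cells, at 36.6 and 36.3 CPM per kb.

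The member that fell and the member with the largest rise are shown by the 250 bases before their RefSeq starts. The E-box letters CACCTG, which Snail and ZEB factors are known to bind, searched on both strands as CACCTG and CAGGTG with no overlap possible between them, are in capitals. Sequences are from RefSeq on GRCh38.p14, 5′ to 3′ on the plus strand, at chr6:167827385-167827634 for AFDN and chr19:44846047-44846296 for NECTIN2.
AFDN: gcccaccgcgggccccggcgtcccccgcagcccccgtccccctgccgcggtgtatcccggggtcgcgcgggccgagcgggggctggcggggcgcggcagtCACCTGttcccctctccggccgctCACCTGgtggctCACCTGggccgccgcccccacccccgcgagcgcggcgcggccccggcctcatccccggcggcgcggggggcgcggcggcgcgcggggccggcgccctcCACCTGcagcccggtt
NECTIN2: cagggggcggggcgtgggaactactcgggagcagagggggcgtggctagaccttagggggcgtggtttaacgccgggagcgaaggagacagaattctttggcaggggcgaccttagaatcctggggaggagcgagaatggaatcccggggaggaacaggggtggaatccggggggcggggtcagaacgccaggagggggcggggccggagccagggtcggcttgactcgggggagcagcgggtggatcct
AFDN held 4 copies, with first bases 150, 126, 114 and 16 bases before the RefSeq start, and NECTIN2 held none in this window. The whole AFDN window, with its copies, lies inside the gene as placed by GENCODE, which starts at 167826893. The NECTIN2 window runs across that gene's GENCODE start at 44846175. The GC content was 84.8% for AFDN and 67.6% for NECTIN2, beside a median of 58.0% over all entries, and the part of base composition in these counts was not tested. At least 1 copy was found in 17.5% of the 35116 promoter entries and at least 4 copies in 0.122% of them. Of the 10 genes 6 had an entry, and besides AFDN only NECTIN4 held the letters, once. The entries of CTNNA1, CTNNB1 and VCL held none. CDH1, CDH3, CTNND1 and NECTIN1 were not among the entries. A match in letters is no evidence of binding, which was not measured.

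Transcriptional repressors of CDH1 did not pass the test. Of 8 listed, 5 were tested, 0 passed the adjusted p-value of 0.05 with edgeR, 0 had an unadjusted p under 0.05, and 0 passed both thresholds with DESeq2. All 5 had positive values, with a median of 0.21 (log2), beside 6312 positive values among the 12857 tested genes, of which 29.6% passed the adjusted p-value. SNAI2, which encodes Slug, was at 37.2 ± 7.31 and 43.0 ± 4.49 CPM (SD, n = 3 each), with a log2 fold change of 0.21 (95% interval -0.028 to 0.46, adjusted p = 0.178, edgeR). KLF8 was at 0.31 (adjusted p = 0.217, edgeR) and SNAI1 at 0.29 (adjusted p = 0.598, edgeR), the latter with an interval from -0.49 to 1.08. ZEB2, TWIST1 and TCF4 were under the filter on low counts.

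A further 45 genes of adherens junctions and their actin links were listed from general knowledge, of which 41 were tested. By adjusted p-value 11 were higher and 7 lower in Dsg2KO cells, and 2 passed both thresholds, both higher, beside 29.6% and 6.03% of all tested genes. Their median log2 fold change was 0.093. EVL, an Ena/VASP protein that promotes actin filament elongation, was at 2.95 ± 0.641 and 6.18 ± 0.852 CPM (SD, n = 3 each) and rose by 1.07 ± 0.214 on the log2 scale (SE, edgeR adjusted p = 0.00158). MAGI1, a junctional scaffold that binds β-catenin, was at 2.25 ± 0.956 and 4.57 ± 0.642 CPM and rose by 1.01 ± 0.280 (SE, edgeR adjusted p = 0.0131). Both are weakly expressed, and MAGI1 did not pass without A431CT replicate 1 or Dsg2KO replicate 1, with an adjusted p-value of up to 0.0674. JUP, which encodes plakoglobin and is shared with desmosomes, was at 501 ± 8.88 and 513 ± 27.6 CPM and did not pass the test (adjusted p = 0.576, edgeR). PVR, a nectin-like receptor that binds NECTIN3 and lies 0.213 Mb from NECTIN2 among the neighbours named above, rose with a log2 fold change of 0.32 (adjusted p = 2.86e-04, edgeR), and NECTIN3 itself had at most 2 counts in any library. Named after their values had been seen, CADM4 (1.24 Mb from NECTIN2), ZYX and LIMA1 rose by 0.37, 0.32 and 0.19 on the log2 scale. PKP4, an armadillo protein related to p120 catenin, fell by 0.44. Also lower by adjusted p-value were PLEKHA7 and TJP1, at -0.19 each, and ACTN4, at -0.15.

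**Figure D5:**
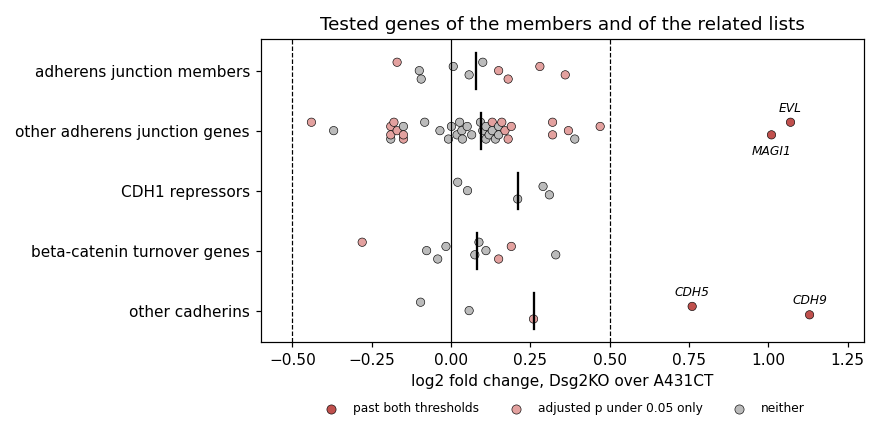
Log2 fold change, Dsg2KO over A431CT (x axis), of every tested gene of the adherens junction members and of 4 related lists, with the median of each list as a bar. Genes past both thresholds are in dark red and named, those past the adjusted p-value only in light red, and the members stay between the dashed lines at 0.5 in either direction.

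Among genes for the turnover of β-catenin, 11 were listed and 10 tested. By adjusted p-value 2 were higher and 1 lower, a share close to the 29.6% of all tested genes, and 0 passed both thresholds, beside 6.03%. GSK3B, a kinase that marks β-catenin for degradation, rose by 0.19 and FBXW11, a substrate receptor of the ubiquitin ligase, by 0.15 on the log2 scale (adjusted p = 0.00502 and 0.0434, edgeR). CTNNBIP1, an inhibitor of β-catenin's binding to TCF factors, fell by 0.28 (adjusted p = 0.00476, edgeR), and its 64 neighbours within 5 Mb had a median of -0.36. The median of the list was 0.081.

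Of 18 other cadherins, 5 were tested, 3 were higher by adjusted p-value and 2 passed both thresholds, beside 14.3% and 2.99% of all tested genes in that direction. CDH5, the cadherin of endothelial cells, was at 5.19, 5.23 and 3.80 CPM in A431CT and 7.98, 8.20 and 7.91 CPM in Dsg2KO libraries (log2 fold change 0.76, adjusted p = 0.0035, edgeR). CDH9 was lower still, at 1.35 ± 0.0972 and 2.97 ± 0.238 CPM (SD, n = 3 each), with a log2 fold change of 1.13 (adjusted p = 0.00497, edgeR). The groups of both genes were separate. CDH5 is also one of the 8 endothelial and leukocyte markers, of which PECAM1 rose by 0.54 and CLDN5 had a log2 fold change of -1.20, while CD3E was at 0 and PTPRC at 8 counts or fewer in every library. The part of other cell types in the level of CDH5 was not tested. CDH13, which lacks a cytoplasmic tail, had a log2 fold change of -0.096 (adjusted p = 0.540, edgeR). CDH2, the N-cadherin that replaces E-cadherin in mesenchymal cells, had between 1 and 12 counts per library and was under the filter.

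Reads of genes on opposite strands can be mixed where the counting does not use strand, and its setting is not given in the sources used here. LRRTM2, whose exons overlap CTNNA1, had no count in any library. AP3M1, whose exons overlap VCL, was at 81.2 ± 1.08 and 78.5 ± 0.816 CPM (SD, n = 3 each), with a log2 fold change of -0.049 (adjusted p = 0.465, edgeR). ULK4, which overlaps CTNNB1 in introns, was at 5.82 ± 0.198 and 4.90 ± 0.413 CPM. Exons of CDH1, CDH3, CTNNA1, NECTIN1 and NECTIN2 are also overlapped by antisense RNA genes that have no row in the table, and CTNND1 shares exons with further annotated genes on its own strand, so the levels of these members may include reads of those genes.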

How the data were processed

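RNA from A431CT and Dsg2KO cells (3 libraries each) was sequenced as paired-end reads. The authors removed adapters and poor reads, used the RNA-Seq tool of CLC Genomics Workbench with GRCh38, and deposited unnormalized whole-number counts under gene symbols. The gene annotation and the strand setting are not given in the sources used here. All 6 value columns were mapped by the library names in the labels.

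Counts were fitted with edgeR 4.0.16 in R 4.3.3, using TMM factors (0.990 to 1.01), filterByExpr (minimum count 10, minimum total 15), quasi-likelihood F tests and Benjamini-Hochberg adjustment over 12857 genes. Calls needed p under 0.05 after adjustment and, for both thresholds, a log2 change of at least 0.5 in size. Standard errors and 95% intervals were derived from the log2 fold change and its F statistic. In CPM, 3 counts equal 0.184 to 0.236 depending on the library, a limit for counting error only. Chi-square per degree of freedom was 2.66 to 4.20 within replicate pairs, above counting noise. The study describes the libraries as biological replicates, and the labels do not name separate cultures. The p-values measure the spread between these libraries of 1 line per condition. The fit was also run on simulated counts with the same dispersion for every gene and with changes larger than those of the members. That run cannot tell how the fit handles changes as small as theirs.

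Ratios were tested with exact permutation over the libraries (scipy 1.17.1). Positions and lengths came from GENCODE version 44 on GRCh38, which placed 19483 of the symbols. Neighbours are other tested genes within 5 Mb on either side. Their medians came from the main fit of the same libraries. Where they were removed they were treated as known, so those p-values leave out their error. Other settings were a filter of only 1 count, at least 10 counts in every library, RLE size factors, total counts, DESeq2 1.42.0, the likelihood ratio test, a replicate block, fold change minimums of 0 and 1, removal of the neighbourhood median, and each library left out.

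The members and lists were chosen with earlier results of these data known. Named genes are the 10 members, DSG2, JUP, NECTIN3, PVR, CDH2 and CDH13, and from each list those past both thresholds or otherwise the 3 with the smallest p-value. Genes that overlap members, neighbours of NECTIN2, marker genes, CDH12, APC, APC2, RPS27, RPL11, ZEB2, TWIST1 and TCF4 were named after their values were seen. So were CADM4, ZYX, LIMA1, PKP4, PLEKHA7, TJP1 and ACTN4.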

Additional observations from a re-analysis of the deposited data

How the results depend on the processing

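CDH1, CDH3, CTNNA1 and NECTIN2 kept their direction and an adjusted p-value under 0.05 in all 14 refits. Of the members, 0 passed both thresholds in any of them. Where neighbourhood medians were removed, they were those within 5 Mb. The median of the nearer neighbours of NECTIN2, 0.26 within 0.25 Mb, was not removed in any refit. Without a fold change minimum 3802 genes, 5 members, 18 other adherens junction genes and 3 genes of β-catenin turnover passed. Raising it to 1 left 250 genes, 2 other adherens junction genes and 1 other cadherin. VCL passed with total counts only at 0.12 and with neighbourhood medians removed at 0.13, and NECTIN1 passed with medians removed at -0.16, where AFDN turned to 0.070. With 1 library left out, log2 fold changes ran from -0.20 to -0.13 for AFDN, 0.066 to 0.14 for VCL, -0.011 to 0.029 for CTNND1 and -0.25 to 0.039 for NECTIN4. The difference in the log2 ratio of NECTIN4 to NECTIN1 then ran from -0.127 to 0.141, and the other adherens junction genes past both thresholds numbered from 1 to 3. Why values moved between the settings was not tested. Libraries with the same replicate number had residual correlations of -0.0027 to 0.0539 over all tested genes, which cannot settle whether they share a batch. With a replicate block 7 members passed the adjusted p-value, VCL at 0.10 and NECTIN1 at -0.10 in addition, and 0 passed both thresholds. NECTIN4 had as few as 101 counts in a library and a replicate CV of up to 17.6%.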

Other observations

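CDH12, a type II cadherin known mainly from brain, was at 226 ± 9.61 CPM in A431CT and 236 ± 2.08 CPM in Dsg2KO cells (SD, n = 3 each). Per kb of canonical transcript this was 53.2 ± 2.26 and 55.3 ± 0.489 CPM, beside 60.3 ± 0.746 and 66.9 ± 1.59 for CDH3. Its log2 fold change of 0.057 did not pass the test (adjusted p = 0.318, edgeR's quasi-likelihood test). Whether reads of other genes were counted under CDH12 was not tested, so its level is uncertain. In the same counts the ribosomal protein genes RPS27 and RPL11 averaged 4.63 and 470 CPM over all libraries. Both were named after their values had been seen, and they do not show how reads were assigned to CDH12.

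APC, the scaffold of the β-catenin destruction complex, was at 0.714 ± 0.0784 CPM per kb of canonical transcript in A431CT and 0.899 ± 0.146 in Dsg2KO cells. Its relative APC2 was at 10.4 ± 0.260 and 10.1 ± 0.394 CPM per kb, and neither gene passed the test (adjusted p = 0.125 and 0.547, edgeR's quasi-likelihood test). The assignment of reads to APC and APC2 was not tested either, so their levels are uncertain as well.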
